A study of Rattus norvegicus with 9 samples.

Results

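Muscle capillaries are lined by endothelial cells, and 10 genes that mark these cells were followed across all 9 libraries of the study: Pecam1, Cdh5, Kdr, Flt1, Tek, Tie1, Cd34, Vwf, Eng and Esam. They were found by matching the NCBI gene IDs of the deposited tables to RefSeq rat symbols. All 10 were found among 13752 gene IDs, each listed in all libraries, and all 10 passed the filter on low counts that left 10129 genes for testing. The labels do not give the kind of injury or when SHAM and DN muscle was taken. RNA came from the gastrocnemius, a calf muscle, of male rats aged 8 weeks, with 3 libraries per group. SHAM rats had a sham operation and DN rats a sciatic nerve injury, the nerve that supplies this muscle. DN-SM rats had the same injury and were given electrical stimulation through surface electrodes every day for 4 weeks from surgery, at 25 V, 1 mA and 2 Hz with a pulse width of 300 ms. SHAM and DN rats were also anaesthetised and had electrodes placed on the skin for 10 minutes, but received no current. All rats were fed standard chow, and no strain, transgene or other agent is given in the labels.

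Endothelial cells hold together through adhesion molecules at their borders, among them the cadherin encoded by Cdh5 and the immunoglobulin-type proteins of Pecam1 and Esam. Their growth and survival depend on receptor kinases: Kdr and Flt1 bind vascular endothelial growth factors, Tek binds the angiopoietins, and Tie1 is a related receptor that associates with Tek. Skeletal muscle has a dense capillary bed around its fibres, and whole-muscle RNA therefore carries transcripts of these cells. Such bulk RNA gives the share of a gene in the library, so fewer endothelial cells and less RNA per cell cannot be told apart, and the amount of RNA per muscle was not analysed here.

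Total expected counts, the estimated fragments per gene summed over a library, were between 7926445 and 8893843, and 12232 to 12484 genes were listed per library. Genes of skeletal muscle fibres were abundant in every group, with 118000 to 144000 FPKM (fragments per kilobase of transcript, scaled to library size) summed over 7 genes. The SHAM libraries varied among themselves in the endothelial genes. SHAM replicate 1 was the highest of its group for 9 of the 10, and SHAM replicate 2 the lowest for 7. In DN, replicate 3 was the highest for 9 of the 10. Whether each library stands for a separate animal is not given, so p-values measure the spread between these samples.

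In SHAM muscle the levels per length fell into bands. Eng, Cd34, Pecam1 and Cdh5 had mean values of 40.5, 36.5, 30.7 and 30.3 FPKM, and neighbours in this order overlapped. Esam and Tie1 lay below at 18 and 17.0 FPKM, with no overlap between Cdh5 and Esam. Flt1, Kdr, Vwf and Tek came last, at 6.23, 6.03, 5.2 and 3.93 FPKM. Tie1 and Flt1 did not overlap, whereas the last 4 did overlap from neighbour to neighbour. Kdr, Flt1 and Tek are thus receptors listed at low FPKM in this tissue, although their long transcripts still gave 140 or more counts in every library. The 10 genes summed to 226, 167 and 191 FPKM in SHAM replicates 1 to 3, to 265, 298 and 352 in DN, and to 250, 238 and 229 in DN-SM. Every DN library was above every SHAM and DN-SM library in this sum, for which no test was made. The FPKM were used as deposited, and their level over all genes also differed somewhat between groups, as given below.

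**Figure D1:**
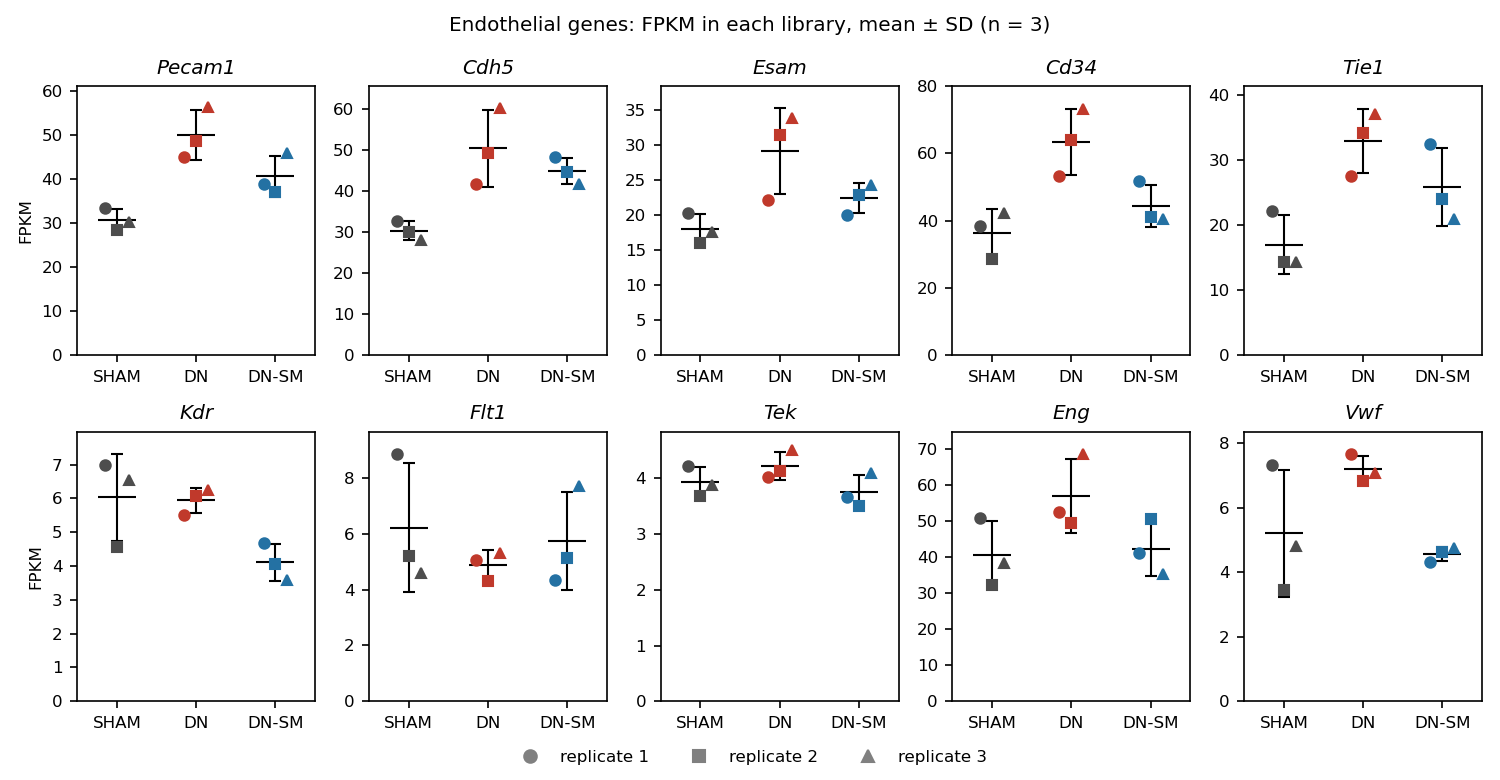
FPKM of the 10 endothelial genes in each library (points, with a marker for each replicate number) and the group mean ± SD (bar and whiskers, n = 3) for SHAM, DN and DN-SM. The adhesion genes Pecam1, Cdh5 and Esam, with Cd34 and Tie1, are higher in all DN than in all SHAM libraries, while Kdr, Flt1 and Tek overlap between those groups.

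The comparison of DN with SHAM asked what nerve injury did to the muscle. Of the 10 endothelial genes 5 rose and 0 fell: Pecam1, Cdh5, Esam, Cd34 and Tie1, by 1.54 to 1.86 times. Among all 10129 genes tested, 2.57% rose by the same criterion, an edgeR quasi-likelihood adjusted p under 0.05, 1.7% fell and 4.26% did either. Over all genes 260 rose and 172 fell (358 and 412 by DESeq2, 203 and 75 by limma on log2 FPKM). The median log2 fold change of the 10 genes was 0.52, against -0.01 over all genes. The FPKM of these 5 genes, and of none of the other 5, were higher in every DN than in every SHAM library, as in 15.9% of all genes tested. Groups were apart in the lower direction for 0 of the 10 genes and 6.91% of all genes, and in either direction for 22.8%.

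The junction and adhesion genes rose by similar amounts. Pecam1, which makes homophilic contacts between endothelial cells and is also carried by platelets and leukocytes, was at 33.5, 28.5 and 30.2 FPKM in SHAM replicates 1 to 3, at 45.0, 48.6 and 56.3 in DN and at 38.9, 37.1 and 46.0 in DN-SM. All DN and all DN-SM libraries lay above all SHAM libraries, and DN-SM overlapped DN. Its log2 fold change in DN against SHAM was 0.63 (SE 0.108, edgeR adjusted p = 0.0123).

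Cdh5, whose protein VE-cadherin joins neighbouring endothelial cells, was at 32.8, 30.0 and 28.2 FPKM in SHAM, 41.7, 49.4 and 60.3 in DN, with 48.2, 44.6 and 41.8 in DN-SM. Here too both injured groups lay wholly above SHAM and overlapped each other. The change in DN was 0.65 on the log2 scale (SE 0.118, edgeR adjusted p = 0.0137). Esam, another adhesion molecule of endothelial tight junctions, had 20.3, 16.1 and 17.6 FPKM in SHAM, 22.2, 31.4 and 33.8 in DN, with 20.0, 22.9 and 24.2 in DN-SM. DN replicate 1 lay only slightly above SHAM replicate 1, and DN-SM overlapped both other groups. Its log2 fold change in DN was 0.62 (SE 0.139, edgeR adjusted p = 0.0329).

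Cd34, a sialomucin of capillary endothelium that other cells of muscle such as satellite cells and interstitial fibroblasts also carry, was at 38.4, 28.6 and 42.4 FPKM in SHAM, 53.4, 63.8 and 73.1 in DN, with 51.7, 41.0 and 40.4 in DN-SM. DN was apart from both other groups, which overlapped each other. Its rise in DN was 0.72 on the log2 scale (SE 0.156, edgeR adjusted p = 0.0285). In this comparison 4.26% of all genes tested passed by edgeR and 22.3% had an unadjusted p under 0.05. Satellite cell genes had 0 of 3 and fibroblast genes 0 of 6 tested members past the edgeR threshold, also 0 by DESeq2 and by limma. At an unadjusted p under 0.05 there was 1 satellite cell gene, the myogenic factor Myf5 at 1.41 (edgeR adjusted p = 0.138), and 0 fibroblast genes. The matrix genes Col1a1 and Dcn were at -0.21 (0.765) and -0.37 (0.45), and Sdc4 at -0.52 (0.43). The summed level of the fibroblast list was 194 to 484 FPKM in SHAM and 293 to 406 in DN, and that of the satellite cell list 15.4 to 27.7 and 17.1 to 20.5. The part of these cells in the level of Cd34 was not tested.

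Tie1 had the largest estimate of the 10. It was at 22.3, 14.4 and 14.4 FPKM in SHAM, 27.6, 34.2 and 37.1 in DN, with 32.5, 24.1 and 21.0 in DN-SM. DN lay wholly above SHAM, while DN-SM spanned the gap, with replicate 3 below the highest SHAM library. The log2 fold change in DN was 0.89 (SE 0.172, edgeR adjusted p = 0.0195).

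The receptors for growth factors and angiopoietins did not pass. Kdr, the main signalling receptor for Vegfa, was at 6.99, 4.56 and 6.55 FPKM in SHAM, 5.52, 6.07 and 6.24 in DN, with 4.69, 4.06 and 3.59 in DN-SM. The DN range lay wholly within that of SHAM (a log2 change of -0.09, SE 0.15, edgeR adjusted p = 0.778; 0.01 without SHAM replicate 3). Flt1, which binds Vegfa tightly but signals weakly, was at 8.87, 5.22 and 4.6 in SHAM, 5.08, 4.31 and 5.32 in DN, with 4.36, 5.15 and 7.72 in DN-SM. SHAM replicate 1 and DN-SM replicate 3 stood above the other libraries of their groups (DN against SHAM -0.39, SE 0.221, edgeR adjusted p = 0.326; -0.15 without SHAM replicate 1).

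Tek was the most even of the 10 across the study. It was at 4.22, 3.69 and 3.89 FPKM in SHAM, 4.02, 4.14 and 4.51 in DN, with 3.67, 3.51 and 4.10 in DN-SM, so all 3 groups overlapped. Its log2 fold change in DN against SHAM was 0.03 (SE 0.13, edgeR adjusted p = 0.924). The 149 to 178 counts per SHAM or DN library behind these values were the fewest of the 10 genes, and the SE leaves room for a modest change in either direction.

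Eng and Vwf had estimates above 0 that missed the adjusted threshold. Eng, the co-receptor endoglin for ligands of the TGF-beta and BMP family, was at 51.0, 32.4 and 38.2 FPKM in SHAM, 52.5, 49.5 and 68.6 in DN, with 41.1, 50.6 and 35.3 in DN-SM. DN replicate 2 lay below SHAM replicate 1 (log2 fold change 0.42, SE 0.152, edgeR adjusted p = 0.126, unadjusted 0.0156). Vwf, the clotting protein von Willebrand factor that endothelial cells store and secrete, was at 7.33, 3.45 and 4.82 FPKM in SHAM, 7.65, 6.82 and 7.07 in DN, with 4.31, 4.62 and 4.74 in DN-SM. SHAM replicate 1 lay within the DN range and the other SHAM libraries below it (0.42, SE 0.173, edgeR adjusted p = 0.177, unadjusted 0.0308; 0.65 without SHAM replicate 1 and 0.22 without SHAM replicate 2). At an unadjusted p under 0.05, 7 of the 10 genes were higher and 0 lower, against 10.9% and 11.4% of all genes tested, 22.3% in either direction.

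The calls rested on few libraries. Without DN replicate 3 none of the 10 genes passed, and the adjusted p of the 5 ran from 0.0612 for Pecam1 to 0.132 for Esam, while their log2 fold changes were 0.55 for Esam to 0.85 for Tie1. Pecam1 and Cdh5 passed in each of the other 18 alternatives run, whereas the count was 2 without SHAM replicate 2 or DN replicate 2 and 3 without SHAM replicate 1.

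Transcript length differed among the 10 genes. The 5 that rose have transcripts of 1161 to 3848 bases, and of those that did not pass, Kdr, Flt1, Tek and Vwf have 5892, 6687, 4559 and 8803. Eng, which did not pass either, has 2918 bases, inside the range of the genes that rose. Over all genes the median log2 fold change in DN against SHAM went from 0.04 for transcripts under 2000 bases to -0.11 for those of 6000 bases or more. With each library's trend with length removed, a step added after the data were seen, the same 5 genes were called, with Tek at 0.09 (adjusted p = 0.735), Kdr at -0.01 (0.988), Flt1 at -0.29 (0.46), Vwf at 0.53 (0.0916) and Eng at 0.44 (0.111).

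**Figure D2:**
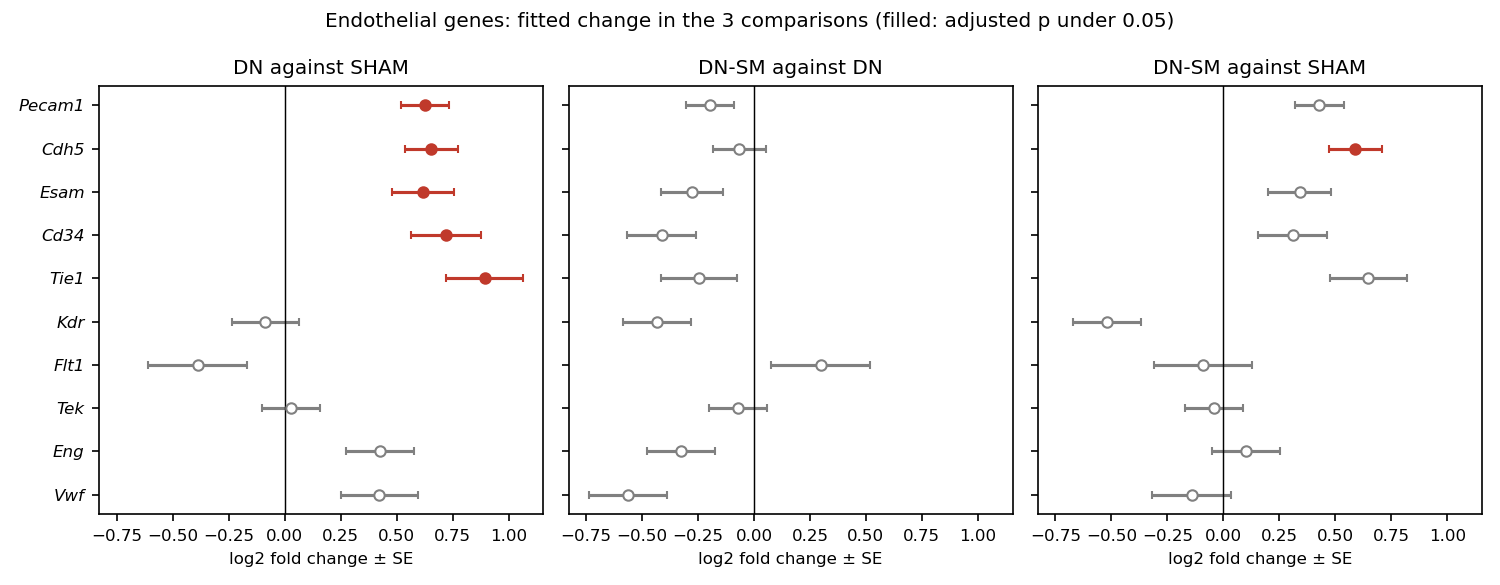
Fitted log2 fold change (point) and its SE (whisker) of the 10 endothelial genes for the 3 pairs of groups, with panels for DN and SHAM, DN-SM and DN, and DN-SM and SHAM. Filled red points passed an edgeR adjusted p of 0.05: 5 genes in the first comparison, 0 in the second and Cdh5 in the last.

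The deposited tables give 1 transcript for 9 of the genes and 2 for Flt1. Its deposited length is an average over both transcripts and was between 6566 and 6770 bases in the 9 libraries. RefSeq promoter sequence (build GRCr8) was at hand for 5 of the 10 genes, Kdr, Flt1, Tie1, Cd34 and Eng. The 250 bases before the start of a pair that rose, Tie1 and Cd34, and of the Vegfa receptors Kdr and Flt1, which did not pass, are shown to set the letters beside these different readouts. Tie1 is at chr5:137304982-137305231 on the minus strand, Cd34 at chr13:109008536-109008785 on the plus strand, Kdr at chr14:32571813-32572062 on the plus strand and Flt1 at chr12:12333180-12333429 on the plus strand. Each is printed 5′ to 3′ on the strand of its gene, with capitals on matches in either direction to CNGGAAG, a core of sites for ETS factors, or to GGGCGG, a core of sites for Sp1 and KLF factors.
Tie1: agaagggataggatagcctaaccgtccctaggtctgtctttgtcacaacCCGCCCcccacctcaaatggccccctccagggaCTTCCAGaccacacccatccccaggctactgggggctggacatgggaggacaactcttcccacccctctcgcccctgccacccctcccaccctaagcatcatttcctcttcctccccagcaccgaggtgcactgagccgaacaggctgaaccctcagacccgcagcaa
Cd34: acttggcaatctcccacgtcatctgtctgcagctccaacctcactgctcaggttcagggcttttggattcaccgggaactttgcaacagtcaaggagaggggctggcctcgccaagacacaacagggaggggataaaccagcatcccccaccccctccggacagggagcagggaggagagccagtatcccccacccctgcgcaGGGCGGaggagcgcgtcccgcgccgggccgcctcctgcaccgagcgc
Kdr: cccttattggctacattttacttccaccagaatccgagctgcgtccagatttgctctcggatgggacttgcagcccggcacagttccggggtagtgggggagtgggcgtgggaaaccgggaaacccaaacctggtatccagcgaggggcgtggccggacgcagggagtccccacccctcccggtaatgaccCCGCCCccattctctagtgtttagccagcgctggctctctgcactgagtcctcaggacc
Flt1: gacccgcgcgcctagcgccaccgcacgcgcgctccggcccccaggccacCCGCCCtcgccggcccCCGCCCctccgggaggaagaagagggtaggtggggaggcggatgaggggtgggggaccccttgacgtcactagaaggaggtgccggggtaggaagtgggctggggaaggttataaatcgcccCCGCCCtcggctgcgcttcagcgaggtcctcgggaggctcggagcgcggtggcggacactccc
GGGCGG or its complement was found in 4 of 5 of these promoters, all but that of Eng, against 32.4% of 27457 rat promoters of this length. CNGGAAG was found in 1 of 5, in Tie1 at positions -168 to -162 before the start, against 26.3% of all promoters. Other forms of an ETS site were not searched, so a promoter without this string may still hold one. Of the other motifs searched on both strands, GTAAACA of forkhead factors, the motif AGATAA of GATA factors and the motif ACAATG of SOX factors matched in 0 of the 5, against 3.25%, 10% and 10.9% of all promoters. TATAAA, the TATA box, matched in Flt1 alone (13.1% of all promoters). The Sp1-type letters were thus present in promoters of genes that rose and of genes that did not.

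The comparison of DN-SM with DN asked what stimulation did to injured muscle. By edgeR 0 of the 10 genes passed, also 0 by DESeq2 and by limma on log2 FPKM. Over all genes tested 0.00987% passed by edgeR, while DESeq2 called 222 genes, limma 1 and an edgeR fit of the 2 groups alone 716. Estimates were below 0 for 9 of the 10 genes, with a median log2 fold change of -0.26 against -0.01 over all genes. At an unadjusted p under 0.05, 3 were lower (Vwf, Kdr and Cd34) and 0 higher, against 6.5% and 11.1% of all genes, 17.6% in either direction. The mean FPKM of DN-SM lay between those of SHAM and DN for 7 of the 10 genes, the exceptions being Kdr, Tek and Vwf, for which it lay below both. Among the 7, Flt1 had its lowest mean in DN rather than its highest. The share of all genes with such an order was not counted, so the 7 cannot be set against a background.

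Vwf had the largest estimate, at 4.31, 4.62 and 4.74 FPKM in DN-SM and 6.82 to 7.65 in DN with no overlap. Its log2 fold change was -0.56 (SE 0.174, edgeR adjusted p = 0.179). It passed in the fit of the 2 groups alone (-0.56, adjusted p = 0.0109) and without SHAM replicate 2 (0.0343), and over all alternatives its adjusted p ran from 0.0109 to 0.395. Kdr at -0.43 (SE 0.152, edgeR adjusted p = 0.197) and Cd34 at -0.41 (SE 0.155, 0.213) were also lower in every DN-SM than in every DN library. These 3 of 10 genes with separate groups compare with 21.3% of all genes tested that were lower in FPKM in the same way, 11.4% that were higher and 32.7% in either direction. By limma on log2(FPKM + 1) the median change over all genes was -0.09 here and 0.05 in DN against SHAM. By edgeR it was -0.01 in both.

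Of the other genes that rose after injury, none passed here. The log2 fold change in DN-SM against DN was -0.20 for Pecam1 (SE 0.107, edgeR adjusted p = 0.347), -0.28 for Esam (SE 0.138, 0.31) and -0.25 for Tie1 (SE 0.17, 0.455). For Cdh5 it was -0.07 (SE 0.117, edgeR adjusted p = 0.796; 0.03 without DN replicate 3). Eng was at -0.32 (SE 0.152, 0.285), Tek at -0.07 (SE 0.13, 0.798) and Flt1, the only gene with an estimate above 0, at 0.30 (SE 0.222, 0.495; 0.04 without DN-SM replicate 3).

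Set beside SHAM, stimulated injured muscle had 1 of the 10 genes higher and 0 lower, against 0.415% and 0.425% of all genes tested, 0.839% in either direction. At an unadjusted p under 0.05, 4 were higher and 1 lower, against 6.54% and 6.23% of all genes, 12.8% in either direction. The higher gene was Cdh5 (log2 fold change 0.59, SE 0.118, edgeR adjusted p = 0.0448). Its call was lost without any of DN-SM replicates 1 to 3, SHAM replicate 1 or 3, or DN replicate 2, with an adjusted p of up to 0.191. Pecam1 was at 0.43 (SE 0.108, 0.0978), with all DN-SM above all SHAM libraries as for Cdh5. Such separate groups, higher in DN-SM, were found in 2 of the 10 genes and 7.49% of all genes, against 9.34% lower and 16.8% in either direction. Tie1 was at 0.65 (SE 0.172, edgeR adjusted p = 0.114). DESeq2 called Pecam1, Cdh5 and Tie1, among 266 genes it called in all.

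Kdr pointed the other way, at -0.52 in DN-SM against SHAM (SE 0.152, edgeR adjusted p = 0.149, unadjusted 0.00486). SHAM replicate 2 fell within the DN-SM range and the other SHAM libraries above it. Without SHAM replicate 2 the log2 fold change was -0.65 and passed (adjusted p = 0.0452). Esam was at 0.34 (adjusted p = 0.326), Cd34 at 0.31 (0.439), Eng at 0.10 (0.833), Tek at -0.04 (0.925), Flt1 at -0.09 (0.904) and Vwf at -0.14 (0.787), by the same edgeR test. Of these Eng, Tek, Flt1 and Vwf changed sign when 1 library was left out, within -0.04 to 0.21, -0.11 to 0.01, -0.35 to 0.15 and -0.33 to 0.09.

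Ratios between the genes inside a library do not depend on how libraries are scaled. Each group difference in a ratio was tested with a two-sided exact permutation test, in which 3 against 3 libraries cannot go below p = 0.1. There were 18 tests over 6 ratios, chosen after the values were seen, and 9 reached that smallest p, with an adjusted p of 0.2. Tie1 to Tek, the 2 members of the Tie receptor family, was 5.27, 3.91 and 3.70 in SHAM, 6.87, 8.25 and 8.23 in DN, with 8.87, 6.85 and 5.12 in DN-SM. All DN ratios exceeded all SHAM ratios, with a log2 difference of 0.87 (SE 0.182, exact p = 0.1), and DN-SM overlapped both.

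Kdr to Cdh5 was 0.213, 0.152 and 0.232 in SHAM, 0.132, 0.123 and 0.104 in DN, with 0.0973, 0.0910 and 0.0859 in DN-SM. The 3 groups did not overlap, so the Vegfa receptor was lowest relative to the junction cadherin in stimulated muscle and highest in SHAM. The log2 difference was -0.72 (SE 0.214) for DN against SHAM, -0.38 (SE 0.117) for DN-SM against DN and -1.10 (SE 0.194) for DN-SM against SHAM, each with an exact p of 0.1. Tek to Cdh5 was 0.129, 0.123 and 0.138 in SHAM, above all libraries of DN (0.0748 to 0.0964) and of DN-SM (0.0761 to 0.0981), which overlapped each other. Tie1 to Cdh5 overlapped in each comparison, with mean ratios of 0.556, 0.657 and 0.572 in SHAM, DN and DN-SM.

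Kdr to Flt1, the pair of Vegfa receptors, overlapped between DN and SHAM, and was lower in every DN-SM library (0.465 to 1.08) than in every DN library (1.09 to 1.41), with a log2 difference of -0.73 (SE 0.37, exact p = 0.1). Its DN-SM replicate 1 and DN replicate 1 almost touched. Vwf to Cdh5 had a mean of 0.170 ± 0.0542 in SHAM, which compares with 0.146 ± 0.0338 in DN (SD, n = 3). In DN-SM it was 0.102 ± 0.0121 (SD, n = 3), apart from both others.

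**Figure D3:**
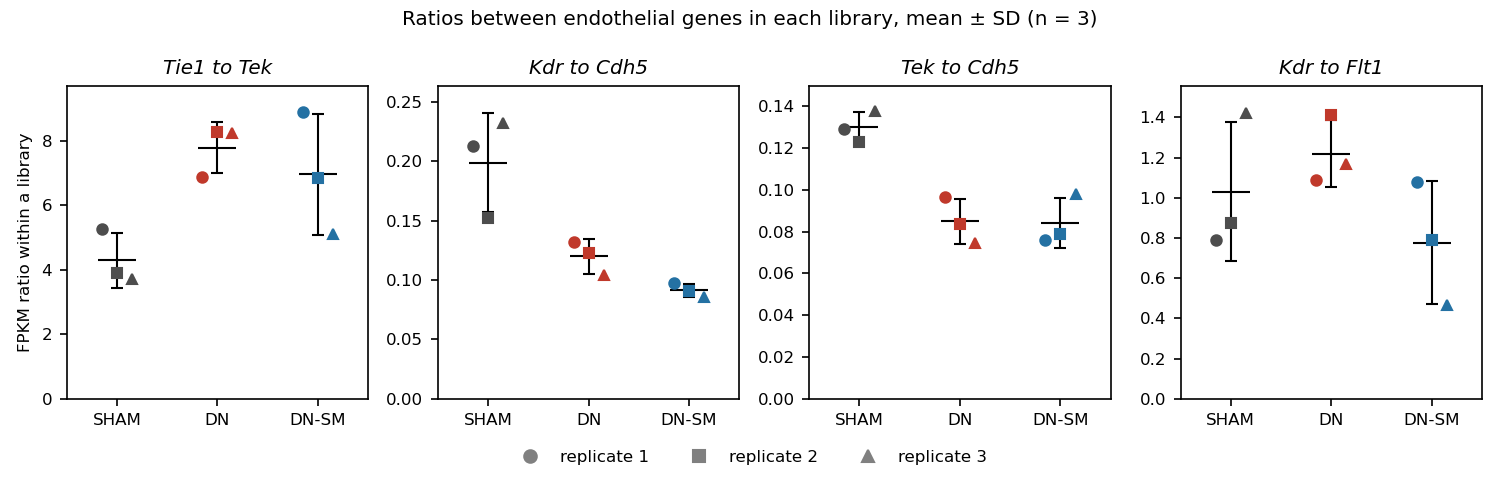
FPKM ratios between endothelial genes inside each library (points, with a marker for each replicate number) and the group mean ± SD (n = 3), on axes that start at 0. Tie1 to Tek was higher and Tek to Cdh5 lower in all DN than in all SHAM libraries, and Kdr to Cdh5 differed without overlap among all 3 groups.

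Of 8 tested genes for ligands of the receptors 1 rose and 0 fell in DN against SHAM, where 2.57% of all genes rose. Tgfb1, a ligand of the receptor complex that Eng joins, was at 16.1, 10.6 and 15.5 FPKM in SHAM and 21.5, 20.8 and 29.1 in DN, without overlap. It rose by 0.69 on the log2 scale (SE 0.162, edgeR adjusted p = 0.0376), a call that held without SHAM replicate 3 but not without any other 1 library, with an adjusted p of up to 0.152 without DN replicate 3.

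Vegfa, the growth factor that binds Kdr and Flt1, was at 59.6, 32.5 and 18.9 FPKM in SHAM, 29.7, 24.7 and 33.2 in DN, with 32.9, 33.3 and 55.2 in DN-SM. SHAM alone spanned the range of both other groups (DN against SHAM -0.39, edgeR adjusted p = 0.553). Angpt2, an angiopoietin released by endothelial cells that acts on Tek, had 2.54 ± 0.491 FPKM in SHAM and 3.98 ± 1.12 in DN (SD, n = 3; 0.56, edgeR adjusted p = 0.214). Angpt1, the activating angiopoietin, had 0.767 ± 0.107 and 0.370 ± 0.12 (-1.10, 0.234). Vegfb was at 0.25, Vegfc at 0.53 and Pgf at 0.26, with adjusted p of 0.353, 0.417 and 0.663. No ligand passed in the other comparisons by edgeR, DESeq2 or limma, with 0 of 8 at an unadjusted p under 0.05 in DN-SM against DN and 1, Tgfb1, in DN-SM against SHAM.

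Among 12 tested partners of the 10 proteins, 1 rose and 1 fell in DN against SHAM, where 2.57% and 1.7% of all genes did. Jup, the plakoglobin that links cadherins to the cytoskeleton, went from 52.3 ± 7.02 to 74.7 ± 6.43 FPKM (SD, n = 3; 0.45, SE 0.115, edgeR adjusted p = 0.0476). Ptpn11, the phosphatase SHP2 that binds the tail of Pecam1 and is active in many cell types, went from 39.5 ± 4.71 to 28.3 ± 2.88 FPKM (-0.57, SE 0.134, 0.0378). Jup passed in 3 of 19 alternatives, and its adjusted p ran up to 0.162, whereas Ptpn11 passed in 8 of 19 with an adjusted p of up to 0.146. Acvrl1, the receptor ALK1 that Eng works with, was at 0.26 (0.297), and the beta-catenin gene Ctnnb1 at -0.11 (0.617).

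Other genes of endothelial cells were counted from a list of 29, of which 25 were tested. In DN against SHAM 4 rose and 0 fell, where 2.57% and 1.7% of all genes tested did. The median log2 fold change was 0.42, against -0.01 over all genes, and 22 of 25 estimates were above 0. Ramp2, a partner of the adrenomedullin receptor, was at 34.3, 27.5 and 37.7 FPKM in SHAM, 61.5, 65.0 and 80.7 in DN, with 55.0, 60.9 and 56.9 in DN-SM. Both injured groups lay far above SHAM (DN 0.98, SE 0.136, edgeR adjusted p = 0.00434, and DN-SM 0.82, SE 0.136, 0.0214). Rasip1, needed for vessel lumens, rose by 0.79 in DN (SE 0.126, 0.00845), and both genes passed in DN against SHAM with any 1 library left out. The call of Ramp2 in DN-SM against SHAM was lost without SHAM replicate 1 or any 1 DN-SM library, with an adjusted p of up to 0.087.

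Egfl7, a matrix protein secreted by endothelial cells, rose by 0.63 (edgeR adjusted p = 0.0424) and Nos3, the endothelial nitric oxide synthase, by 0.49 (0.0439). With 1 library left out the count of 4 was 2 to 5, at 2 without SHAM replicate 2, any 1 DN library or DN-SM replicate 1 or 2, and the adjusted p of Egfl7 and Nos3 ran up to 0.132 and 0.14. In DN-SM against DN 0 of 25 passed by edgeR, DESeq2 or limma, and the median was -0.07. At an unadjusted p under 0.05, 2 were higher and 4 lower, against 11.1% and 6.5% of all genes. In DN-SM against SHAM 1 passed, Ramp2, where 0.415% of all genes were higher.

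Of 7 tested genes typical of capillaries 2 rose and 0 fell in DN against SHAM, where 2.57% and 1.7% of all genes did. Gpihbp1, which carries lipoprotein lipase to the capillary lumen, was at 6.45, 6.75 and 7.52 FPKM in SHAM, 19.8, 18.1 and 22.5 in DN, with 17.4, 12.4 and 15.4 in DN-SM. The groups SHAM and DN were far apart, and DN-SM lay between them without overlap. The log2 fold change was 1.46 in DN (SE 0.164, edgeR adjusted p = 0.00232) and 1.14 in DN-SM against SHAM (SE 0.165, 0.0123), and -0.32 in DN-SM against DN (SE 0.157, 0.301). Without DN-SM replicate 1 the adjusted p in DN-SM against SHAM was 0.0576.

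Car4, a carbonic anhydrase of the capillary surface, rose by 0.84 in DN (SE 0.182, edgeR adjusted p = 0.0285). Its call was lost without SHAM replicate 1 or 2 or any 1 DN library, with an adjusted p of up to 0.116. The other 5 of 7 capillary genes did not pass. Fabp4, a fatty acid binding protein, was at 0.48 (0.0612) and was called by DESeq2, and Rgcc, a cell cycle regulator, was at 0.89 (0.136), both with an unadjusted p under 0.05. The fatty acid transporter Cd36 was at -0.08 (0.901), the water channel Aqp1 at 0.12 (0.635) and the aquaglyceroporin Aqp7 at -0.001 (0.999). In DN-SM against DN 0 of 7 passed by edgeR, DESeq2 or limma, and 0 had an unadjusted p under 0.05.

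**Figure D4:**
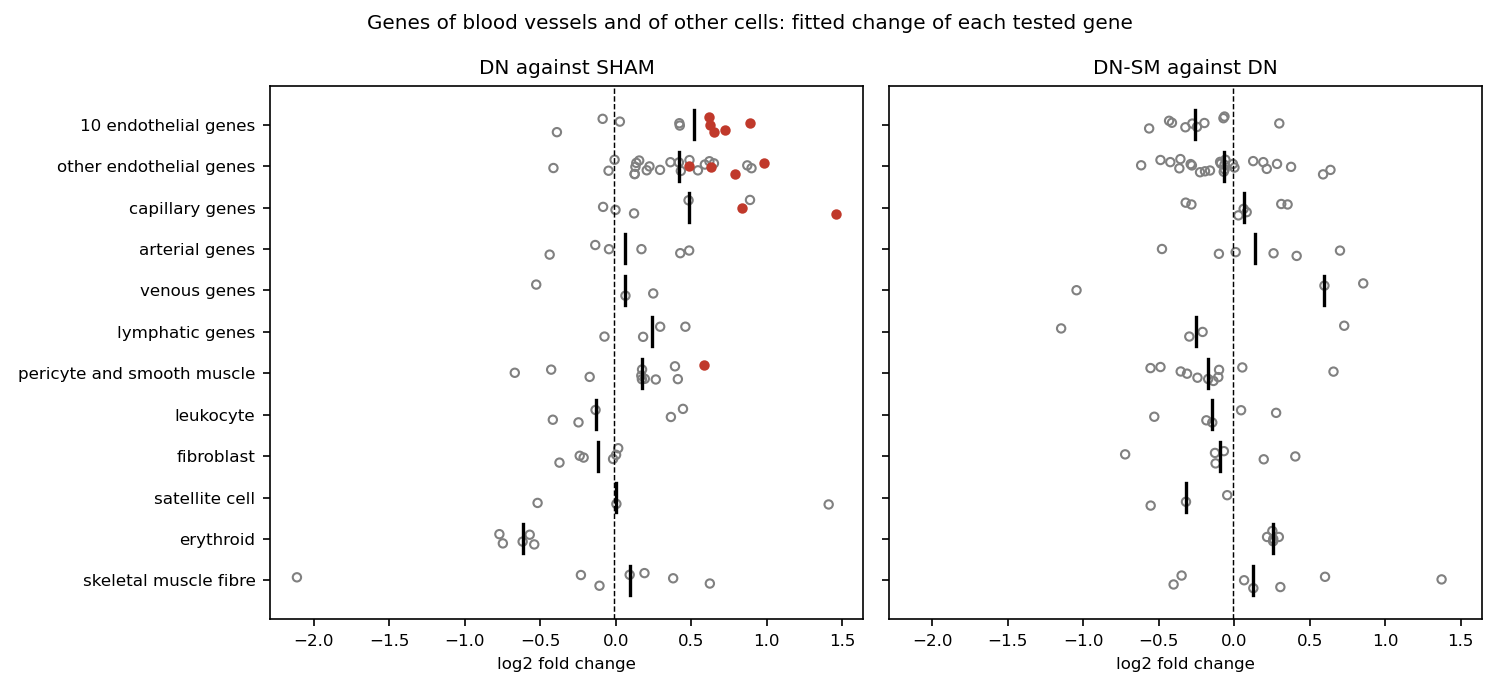
Fitted log2 fold change of each tested gene (points, filled red where the edgeR adjusted p was under 0.05) in 12 gene lists, for DN against SHAM and DN-SM against DN. Thick bars are list medians and the dashed line the median of all genes tested. In DN against SHAM the medians of the 10 endothelial genes, the other endothelial genes and the capillary genes were 0.52, 0.42 and 0.48.

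Genes of other vessel parts were also counted in DN against SHAM, with no test of a difference between lists. In this comparison 4.26% of all genes tested passed by edgeR. No arterial (6 tested), venous (3), lymphatic (4) or junction (7) gene passed by edgeR, DESeq2 or limma. At an unadjusted p under 0.05 there were 2, 0, 0 and 1, all higher, where 10.9% of all genes were higher. The medians of these lists were 0.06, 0.07, 0.24 and 0.12. The summed level of the arterial list was 22.5 to 26.9 FPKM in SHAM and 30.9 to 34.5 in DN, without overlap, and the sums of the venous and lymphatic lists overlapped. Gja4, a connexin of arterial endothelium, was at 0.49 (edgeR adjusted p = 0.113), and F11r, a junctional adhesion molecule, at 0.50 (0.0907). The Notch ligand Dll4 was at 0.43 (0.175) and the venous factor Nr2f2 at -0.53 (0.432). Gja4 and Dll4 had the largest differences in the arterial list, with means of 9.2 and 5.85 FPKM in SHAM and 13.6 and 8.21 in DN. Of the 6 arterial estimates 3 were above 0. Prox1, the defining factor of lymphatic endothelium, was at 0 to 0.11 FPKM in all libraries. In DN-SM against DN the same lists had 0 genes past the edgeR threshold. At an unadjusted p under 0.05, which 17.6% of all genes reached, there were 1 arterial, 1 venous, 2 lymphatic and 3 junction genes. Ccl21, a chemokine of lymphatic endothelium, was among them at -1.15 (edgeR adjusted p = 0.144), and DESeq2 called it. Lyve1, a hyaluronan receptor of lymphatic vessels, was at 0.73 (0.272) and Jam2 at 0.65 (0.144). The arterial gene was Dll4 at -0.48 (0.207) and the venous gene Nr2f2 at 0.85 (0.25). Vcam1, an adhesion molecule for leukocytes, was not among them, at 0.60 (0.368) with an unadjusted edgeR p of 0.101.

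Pericytes and smooth muscle cells wrap the vessels, and 1 of 11 tested markers rose in DN against SHAM, as did 2.57% of all genes. It was Mcam, an adhesion molecule that endothelial cells also carry (0.59, SE 0.145, edgeR adjusted p = 0.0429, up to 0.163 over the alternatives). The median of the list was 0.18, and its summed level was 204 to 318 FPKM in SHAM, 319 to 363 in DN and 223 to 288 in DN-SM. At an unadjusted p under 0.05, 3 were higher and 1 lower, against 10.9% and 11.4% of all genes. The lower gene was Abcc9, a subunit of potassium channels, at -0.67 (adjusted p = 0.0819), which DESeq2 called. The pericyte receptor Pdgfrb was at 0.39 (0.149), the proteoglycan gene Cspg4 at 0.41 (0.16) and Rgs5 at 0.17 (0.517). Over the whole list 8 of 11 estimates were above 0 and the others below. In DN-SM against DN 0 of 11 passed by edgeR, DESeq2 or limma. There 1 was higher and 2 lower at an unadjusted p under 0.05, against 11.1% and 6.5% of all genes. Like the sum of the 10 endothelial genes, the sum of this list was highest in DN. In DN-SM it lay within the SHAM range. Its most abundant genes, Acta2 and Tagln of smooth muscle, had means of 85.0 and 83.5 FPKM in SHAM and 66.95 and 63.75 in DN-SM. The sum therefore leans on these genes, and 6 of 11 estimates of the list were above 0 in DN-SM against SHAM. The sum of the 10 endothelial genes was higher in DN-SM (228.9 to 249.5 FPKM) than in SHAM (166.9 to 225.6). The part of pericytes and smooth muscle cells in the result was not tested.

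Blood cells share Pecam1 and Vwf with endothelium, and their part in the result was not tested. In DN against SHAM 4.26% of all genes tested passed by edgeR and 22.3% had an unadjusted p under 0.05. Of 5 tested leukocyte genes 0 passed and 0 had an unadjusted p under 0.05 in DN against SHAM, with sums of 7.45 to 15.2 FPKM in SHAM and 9.74 to 14.5 in DN. The macrophage genes Csf1r and Cd68 were at -0.25 (edgeR adjusted p = 0.594) and 0.37 (0.502). The pan-leukocyte gene Ptprc was at 0.12 to 0.29 FPKM in all libraries. Of the platelet genes, Ppbp was listed at 0 in all but 1 library, Gp9 was at 0.21 to 1.31 FPKM and Pf4 overlapped between groups (0.16, edgeR adjusted p = 0.92). The erythroid list, with 0 of 5 past the threshold and 0 at an unadjusted p under 0.05, had sums of 10670 to 18650 FPKM in SHAM and 5567 to 14180 in DN, and Hbb and Hbb-b1 were at -0.75 (0.496) and -0.77 (0.481). Of muscle fibre genes 0 of 7 passed by edgeR, with 1 lower at an unadjusted p under 0.05, Myh4, a fast myosin at -2.11 (0.0625), which DESeq2 called. Another fast myosin, Myh1, was at 0.09 (0.86).

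Low oxygen is a known stimulus of Vegfa and its receptors. Of 10 tested hypoxia genes 0 passed by edgeR, DESeq2 or limma in any comparison. By edgeR 4.26% of all genes passed in DN against SHAM, 0.00987% in DN-SM against DN and 0.839% in DN-SM against SHAM. The median of the hypoxia list in DN against SHAM was -0.11. At an unadjusted p under 0.05, 2 were lower in DN than in SHAM and 0 higher, against 11.4% and 10.9% of all genes. The 2 were the glycolytic genes Pgk1 at -0.38 (edgeR adjusted p = 0.217) and Ldha at -0.38 (0.224). Egln3, a prolyl hydroxylase, was at -0.29 (0.378). In DN-SM against DN 1 was higher, Pgk1 at 0.42 (0.243), and 0 lower, against 11.1% and 6.5% of all genes. In DN-SM against SHAM 1 was higher and 1 lower, against 6.54% and 6.23%.

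The 10 genes had a mean centred profile on the log2 CPM scale of -0.06, -0.32 and -0.18 in SHAM replicates 1 to 3, 0.14, 0.20 and 0.29 in DN, with 0.01, -0.05 and -0.03 in DN-SM. Over the 9 libraries Pecam1 kept closest to it, with a root mean square difference of 0.152, and Flt1 farthest at 0.406, while the median of 8734 other genes was 0.299. The 10 other genes closest to this profile were Arpc1a (0.0486), Ppp2r1a, Coq6, Gak, Ppp1r12c, Ehd2, Sdc3, Rab8a, Nucb1 and Cox8a (0.0807). None of them was on the lists of vessel genes. They were picked as the closest of 8734 genes. That each of the 10 endothelial genes lay farther from the mean profile therefore does not show how alike the endothelial genes are.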

How the data were processed

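Libraries were made from 1 µg of total RNA after mRNA isolation and sequenced on a BGISEQ-500, per the labels' protocols. GATK, HISAT2, RSEM and build rn6 are named in the submitters' processing notes, with versions and settings not given in the sources used here. The deposited expected counts are estimated fragments per gene with no normalization, and the deposited FPKM were scaled by the authors to transcript length and library size, per the file headers. A gene absent from 1 library's file counted as 0. Of 13752 IDs, 13649 were given a RefSeq symbol by gene ID and 7 by accession.

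Expected counts were rounded and tested with edgeR 4.0.16 in R 4.3.3 (quasi-likelihood F test, two-sided, robust, TMM factors, filterByExpr with a minimum count of 10 and total of 15). All 9 libraries entered 1 fit with group as the only term, and p-values were adjusted by Benjamini-Hochberg over the 10129 genes tested, with a threshold of 0.05. Alternatives were RLE factors, library sizes without the 20 most abundant genes, DESeq2 1.42.0, no filter, a fit of the 2 groups compared, a replicate block, limma 3.58.1 on log2(FPKM + 1) or + 0.1, with genes at an FPKM of at least 1 in 3 libraries or no filter, and leaving out each library. Removal of a loess trend with transcript length (span 0.5) was added after the data were seen.

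The 10 genes, the gene lists and the tests were chosen with earlier results of these data known. Lists are described by counts and medians alone. The rule for naming took the 10 genes, up to 4 past the threshold per list or else the 2 of smallest p, any ligand or partner, and the 10 genes of mean FPKM 1 or more closest in profile (TMM log2 CPM, prior count 2). Outside this rule, Cd36, Aqp1, Aqp7, Fabp4, Rgcc, Pdgfrb, Cspg4, Abcc9, Rgs5, Acta2, Tagln, Prox1, Ptprc, Ppbp, Gp9 and Ldha were named as examples after their values were seen.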

Additional observations from a re-analysis of the deposited data

How the results depend on the processing

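Of the 10 endothelial genes, the number called in DN against SHAM was 5, and 0 to 5 with 1 library left out, 3 in the fit of the 2 groups alone and 2 by limma with no FPKM filter. In DN-SM against DN it was 0, and 0 to 1 with 1 library left out and 1 in the fit of the 2 groups alone (Vwf). In DN-SM against SHAM it was 1, and 0 to 2 with 1 library left out, 3 by DESeq2, and 0 in the fit of the 2 groups alone, with the replicate block and by each form of limma on FPKM.

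Genes called in DN against SHAM numbered 432, and 58 to 1183 with 1 library left out, 770 by DESeq2, 156 in the fit of the 2 groups alone, 278 by limma at a pseudocount of 1, 250 with a pseudocount of 0.1 and 131 with no FPKM filter. In DN-SM against DN they numbered 1, and 0 to 416 with 1 library left out, 222 by DESeq2, 716 in the fit of the 2 groups alone and 0 by limma with a pseudocount of 0.1. In DN-SM against SHAM they numbered 85, and 15 to 137 with 1 library left out, 266 by DESeq2, 28 in the fit of the 2 groups alone, 39 with the replicate block, 47 by limma at a pseudocount of 1, 43 with a pseudocount of 0.1 and 25 with no FPKM filter. The cause was not tested.

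Kdr in DN against SHAM was at 0.0003 by limma with a pseudocount of 0.1, and from -0.225 to 0.0061 with 1 library left out. Cdh5 in DN-SM against DN ran from -0.151 to 0.0345. In DN-SM against SHAM Flt1 ran from -0.35 to 0.15, Tek from -0.11 to 0.0099, Vwf from -0.333 to 0.0878 and Eng from -0.0421 to 0.213. With the replicate block the 5 genes called in DN against SHAM were called again. The labels do not say that a number pairs samples, and of 9 pairs with the same number 1 had a correlation of deviations over 0.1 (-0.0483 to 0.109). Genes with 140 or more counts per library were measured here, and the counts and 3 libraries per group limit what change of Tek could be seen.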
